A study of Mus musculus with 9 samples.

Results

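Open chromatin that was strong in control mouse colon epithelium and had no listed peak after loss of Cdx2 was examined here, for the regions at which Cdx2 itself was not found bound. A region was the union of overlapping ATAC-seq peaks of 4 libraries on chromosomes 1 to 19 and X. It was selected where both Wt lists held a peak with a -log10 q of at least 5, neither DKO list held a peak, and no Cdx2 ChIP-seq peak overlapped it. That rule chose 11615 of 106425 merged regions. They were 64.0% of the 18158 strong Wt regions without a Cdx2 peak (95% Wilson interval 63.3% to 64.7%). Because the regions were selected on their ATAC and ChIP values, those values are given as a description without a test. RNA levels, distance to genes and promoter sequence were not part of the rule.

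The cells were large intestinal cells, enriched from fresh colon by EDTA washes. DKO mice were Cdx1-/-Cdx2f/f vill (+) and Wt mice were Cdx1-/-Cdx2f/f vill (-), so the mice labelled Wt also lacked Cdx1. Both groups received tamoxifen for 6 days, and each gave 2 ATAC-seq and 2 RNA-seq libraries. The single Cdx2 ChIP-seq library came from vill (-) mice tagged untreated, so binding and accessibility were read in differently treated animals. The labels do not expand vill, do not give the age of the mice, and do not say whether replicates were separate animals. The spread between replicates may therefore be technical.

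Cdx2 and Cdx1 are homeobox transcription factors of the intestinal epithelium. Cdx2 binds enhancers and promoters of genes for absorption, mucus and cell adhesion, often beside HNF4A and GATA factors, and is known for keeping chromatin open at intestinal enhancers. ATAC-seq cuts DNA where nucleosomes are sparse, so a peak marks a promoter or a distal element such as an enhancer. Many promoters of widely expressed genes are rich in CpG and open in nearly every cell type, while distal elements differ more between cell types. In bulk cells, fewer cells of a type and less signal per cell cannot be told apart.

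A region is called lost here only in the sense that no DKO peak was listed there. Peak lists carry no value for a region without a peak, so signal below the callers' limit is not measured, and ATAC read depth is unknown. The lists themselves differed. Peaks with a -log10 q of at least 5 numbered 23336 and 27808 in Wt replicates 1 and 2, against 6297 and 4175 in DKO replicates 1 and 2. DKO replicate 1 stood apart: 11.7% of such peaks lay within 1 kb of a transcription start, against 59.6% in DKO replicate 2 and 51.6% and 47.4% in Wt. Only 25.8% of all its peaks overlapped the other DKO list, and 41.8% of the DKO replicate 2 peaks did so in turn. In Wt replicates 1 and 2, 73.3% and 64.1% of the peaks overlapped the other Wt list. The part of these list differences in the losses was not tested. On DKO replicate 2 alone, 67.0% of the strong Wt regions without a Cdx2 peak had no peak, and on DKO replicate 1 alone 79.9%. When Wt replicate 1 was left out, the rule chose 18776 regions, over 1.5 times as many.

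Promoters of 6 genes covered by lost regions are printed to show the range of sequence that such regions held. Each line is a RefSeq promoter window of 300 bases on GRCm38.p6 (the mm10 assembly), from 250 bases before the annotated start to 50 after it, 5′ to 3′ on the gene's strand. Capitals mark exact matches to the short motifs described further on, the CArG box excepted. Pot1a (chr6:25809169-25809468, minus strand) and Serpinb5 (chr1:106860925-106861224, plus strand) lay under 2 of the 10 strongest lost regions. Cdx2 (chr5:147307200-147307499, minus strand) and Trim31 (chr17:36897880-36898179, plus strand) are genes the study is about. Fcgbp (chr7:28070986-28071285, plus strand) and Gprc5b (chr7:118995162-118995461, minus strand) had large RNA changes in opposite directions.
Pot1a: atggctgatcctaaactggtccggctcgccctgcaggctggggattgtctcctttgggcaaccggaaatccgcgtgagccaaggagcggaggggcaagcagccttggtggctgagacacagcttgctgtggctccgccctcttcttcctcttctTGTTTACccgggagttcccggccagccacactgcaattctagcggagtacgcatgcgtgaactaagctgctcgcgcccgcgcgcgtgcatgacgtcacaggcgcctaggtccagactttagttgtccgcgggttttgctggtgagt
Serpinb5: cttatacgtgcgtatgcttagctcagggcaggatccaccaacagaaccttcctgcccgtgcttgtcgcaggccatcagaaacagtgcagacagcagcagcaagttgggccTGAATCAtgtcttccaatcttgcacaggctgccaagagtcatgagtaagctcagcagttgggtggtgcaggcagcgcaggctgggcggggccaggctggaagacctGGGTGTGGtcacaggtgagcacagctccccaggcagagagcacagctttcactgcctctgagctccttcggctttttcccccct
Cdx2: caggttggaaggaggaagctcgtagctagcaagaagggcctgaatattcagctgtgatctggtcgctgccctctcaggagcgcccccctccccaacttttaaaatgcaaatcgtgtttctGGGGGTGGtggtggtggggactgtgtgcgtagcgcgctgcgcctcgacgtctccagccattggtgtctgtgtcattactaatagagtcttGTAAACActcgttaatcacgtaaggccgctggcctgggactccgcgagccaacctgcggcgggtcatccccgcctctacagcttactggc
Trim31: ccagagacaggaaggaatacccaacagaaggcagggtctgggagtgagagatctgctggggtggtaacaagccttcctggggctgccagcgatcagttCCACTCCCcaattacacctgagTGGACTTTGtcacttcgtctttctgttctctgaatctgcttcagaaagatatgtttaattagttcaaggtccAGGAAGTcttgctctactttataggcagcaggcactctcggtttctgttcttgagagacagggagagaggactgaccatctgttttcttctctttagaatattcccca
Fcgbp: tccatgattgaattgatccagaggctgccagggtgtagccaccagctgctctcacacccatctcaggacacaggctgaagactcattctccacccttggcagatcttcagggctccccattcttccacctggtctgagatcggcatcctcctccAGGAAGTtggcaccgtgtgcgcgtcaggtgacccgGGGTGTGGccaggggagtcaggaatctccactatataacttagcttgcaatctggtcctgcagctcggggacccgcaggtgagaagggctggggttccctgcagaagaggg
Gprc5b: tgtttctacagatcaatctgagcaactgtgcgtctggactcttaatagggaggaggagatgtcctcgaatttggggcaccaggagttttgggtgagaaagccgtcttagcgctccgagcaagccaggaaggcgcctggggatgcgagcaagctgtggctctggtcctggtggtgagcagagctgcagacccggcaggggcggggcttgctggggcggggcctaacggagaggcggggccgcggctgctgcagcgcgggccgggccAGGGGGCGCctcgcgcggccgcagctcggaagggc
The windows differed in composition. Gprc5b had 23 CpG dinucleotides and 66.3% GC, Pot1a 22 and 60.7%, and Cdx2 18 and 57.3%. Serpinb5 and Fcgbp held 7 CpG each, and Trim31 held 3 with 48% GC. A lost region covered all 300 bases of the Pot1a, Cdx2 and Fcgbp windows, 289 of Serpinb5, 255 of Trim31 and 185 of Gprc5b. None of the 6 held the CDX motif, while 4 held a KLF motif (Serpinb5, Cdx2, Trim31 and Fcgbp). In the Trim31 window a match to the HNF4A motif lay at bases 121 to 129, counted from the 5′ end.

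Lost regions had a median width of 293 bases (quartiles 211 and 414, range 59 to 1384). The 3107 unbound strong regions kept in both DKO lists had a median of 828 bases, but their union also takes in DKO peaks. Measured over the Wt peaks alone, the kept regions spanned 783 bases at the median, and the lost ones 293. Median fold enrichment over local background, as the authors' peak caller gave it, was 6.26 in Wt replicate 1 and 6.38 in Wt replicate 2. Kept regions had medians of 8.38 and 8.52. The 923 lost regions that did overlap a Cdx2 peak were closer to the unbound lost ones, with a median width of 321 bases and folds of 6.59 and 6.80. Fold enrichments of the 2 Wt lists correlated across the lost regions (Pearson r = 0.766), a description across regions that share the libraries. Just inside the threshold, 1514 lost regions had a lower Wt -log10 q of 5 to 5.5, with median folds of 5.37 and 5.41. Just outside it, 1537 regions had 4.5 to 5, with median folds of 5.09 and 5.14.

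**Figure D1:**
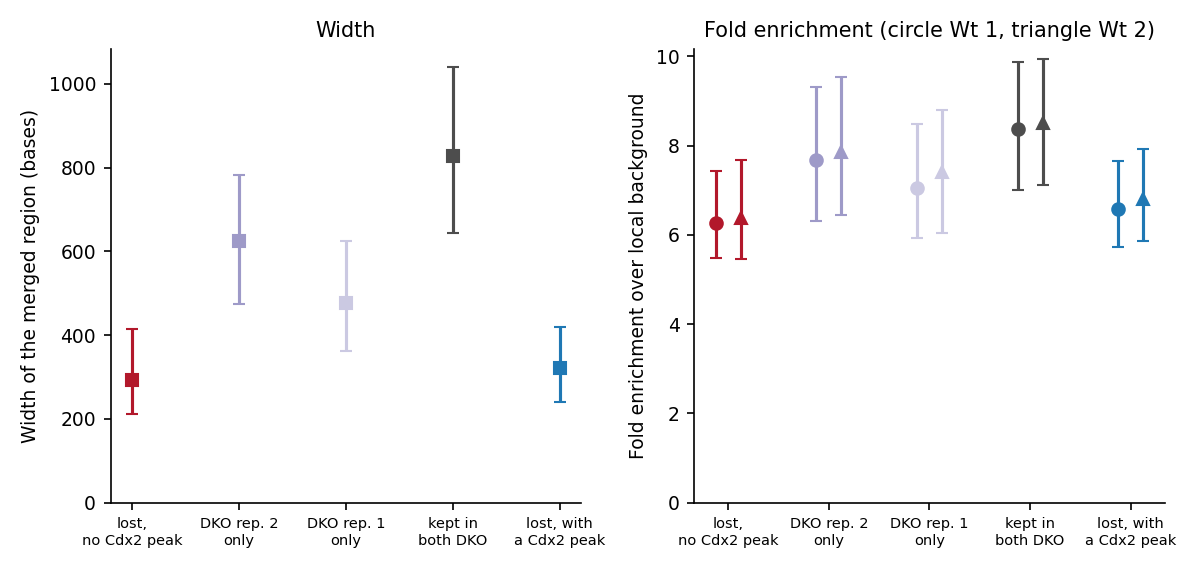
Width in bases of the merged region (left) and fold enrichment in the 2 Wt lists (right) for strong Wt regions by what the DKO and Cdx2 lists held there. Points are medians and bars the quartiles over regions, and the width of regions with a DKO peak includes that peak; lost regions, with or without a Cdx2 peak, sit lowest on both axes, and regions kept in both DKO lists highest.

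The lost share differed with strength in Wt. Among strong Wt regions without a Cdx2 peak, 86.0% of the weakest of 10 equal strength classes were lost (1561 of 1816, interval 84.3% to 87.5%). In the strongest class 26.9% were lost (489 of 1816, interval 24.9% to 29.0%). These intervals cover counting error only. Distance to a gene separated the regions further. Of regions over 1 kb from a transcription start, 91.9% of the weakest class and 65.8% of the strongest were lost. Within 1 kb of a start the shares were 80.6% and 19.02%. In each of the 10 classes the distal share was the higher one, a description of the values that chose the regions.

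**Figure D2:**
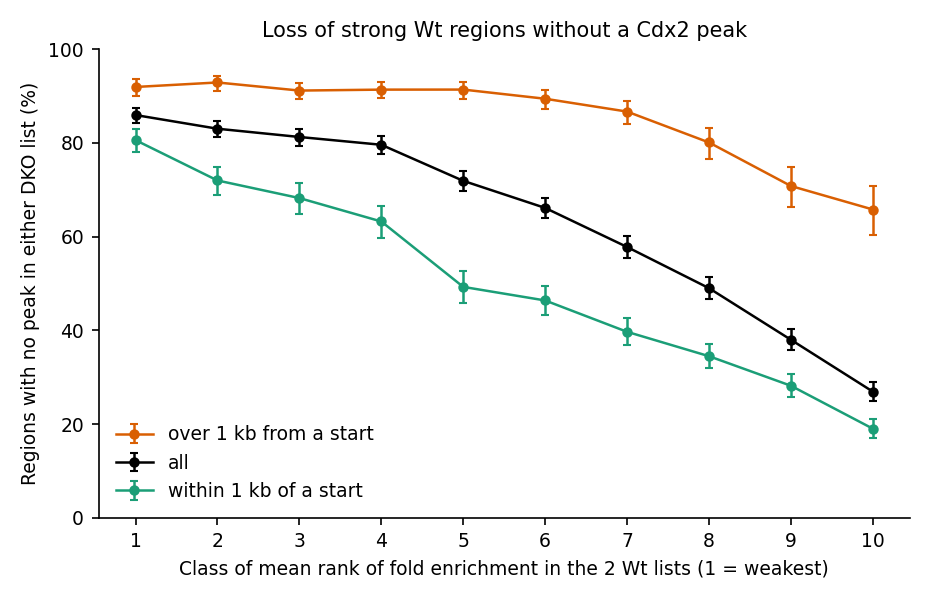
Percent of strong Wt regions without a Cdx2 peak that had no peak in either DKO list, by 10 classes of their mean rank of fold enrichment in Wt, with 95% Wilson intervals. Regions over 1 kb from a start run from 91.9% to 65.8%, and regions within 1 kb from 80.6% to 19.02%.

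Over all strengths, 88.0% of the distal strong regions without a Cdx2 peak were lost (6789 of 7715, interval 87.3% to 88.7%). The corresponding share with a Cdx2 peak was 88.3% (730 of 827, interval 85.9% to 90.3%). Within 1 kb of a start, 46.2% of the unbound regions were lost (4826 of 10443, interval 45.3% to 47.2%), against 54.4% of the bound ones (193 of 355, interval 49.2% to 59.5%). Pooled over both positions, the shares were 64.0% without and 78.1% with a Cdx2 peak, and the bound regions were more often distal. Counting a region as lost on DKO replicate 2 alone, the distal shares were 90.4% without and 89.1% with a Cdx2 peak. On DKO replicate 1 alone they were 93.8% and 95.6%. Within 1 kb of a start the shares depended more on the library. They were 49.7% without and 55.8% with a Cdx2 peak on DKO replicate 2 alone, and 69.6% and 74.6% on DKO replicate 1 alone. A start was taken from the promoter windows or, for 7531 genes without one, from both ends of the gene span, so some distances refer to a gene's far end.

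Between these extremes, 2888 unbound strong regions had a peak in DKO replicate 2 only and 548 in DKO replicate 1 only. Those in replicate 2 only were 624 bases wide at the median, and 84.6% lay within 1 kb of a start. Loss was found on every chromosome examined, from 54.8% of the strong unbound regions on chromosome X (219 of 400) to 71.1% on chromosome 7 (837 of 1178).

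By position, 41.5% of the lost regions lay within 1 kb of a start, 2555 regions (22%) at 1 to 10 kb, 28.1% at 10 to 50 kb and 8.33% farther away. Of the kept regions, 90.4% lay within 1 kb of a start, and of the lost regions with a Cdx2 peak 20.9%. A lost region near a start had a median width of 383 bases, and a distal one 252 bases. Another lost region lay within 10 kb of 3293 of the 11615 (28.4%). A DKO peak lay within 1 kb of 1112 (9.57%) without overlapping them.

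Some lost regions lay close to a Cdx2 peak without touching it. A Cdx2 peak was within 1 kb of 277 (2.38%), within 10 kb of 1320 (11.4%) and within 100 kb of 6061 (52.2%). For the kept regions these shares were 1.64%, 9.30% and 46.6%. The median gap to the nearest Cdx2 peak was 91355 bases for lost regions and 112805 bases for kept ones. These values moved with position, and kept regions lay mostly near a start. Among lost regions within 1 kb of a start, the median gap was 108481 bases, and 8.70% had a Cdx2 peak within 10 kb. For the distal lost regions these were 79072 bases and 13.3%. Gaps of the kept regions were not split by position. The Cdx2 list held 5100 peaks on these chromosomes and came from 1 library, so weaker binding was not detectable at its limit.

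The 10 strongest lost regions, by mean rank of fold enrichment in Wt, were mostly at promoters. The strongest covered the start of Pot1a, which encodes a telomere end-binding protein, at chr6:25809011-25809527. Its fold enrichment was 17.1 in Wt replicate 1 and 15.9 in Wt replicate 2, and the nearest DKO peak was 118989 bases away. Pot1a RNA did not pass the test in the authors' deposited table, at -0.40 ± 0.435 (SE) on the log2 scale (adjusted p = 0.451).

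The next, at chr7:104427999-104428092, was 94 bases wide and lay 18033 bases from the nearest start, that of the interferon-inducible Trim30a. Fold enrichment there was 14.98 and 17.3. At Serpinb5, which encodes the serpin maspin, the region at chr1:106860924-106861213 had folds of 13.2 and 14.7. Serpinb5 RNA was higher in DKO in the authors' deposited table, at 0.88 ± 0.272 (SE) on the log2 scale (adjusted p = 0.00304). It was the only gene to pass that test among the 8 of these 10 with a row there. The other regions lay nearest to Gm41209, Myl1, Rnaset2a, 2610001J05Rik, Dnajc24, Scel and Prorsd1, with folds of 12.4 to 15.02. Scel encodes sciellin, a protein of the cornified envelope, and Dnajc24 a cochaperone. The 10 regions were 94 to 517 bases wide.

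Sequence could be examined at promoters alone, since only RefSeq promoter windows were used here. Lost regions covered at least 150 bases of 3364 of the 32585 windows. Their median GC content was 60.7%, above the 53% of all windows and below the 68% of the 2813 windows under kept regions. CpG dinucleotides numbered 21 at the median, against 7 and 29.

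The CDX motif (TTTATNNC, either strand) was present in 5.83% of windows under lost regions (196 of 3364, interval 5.08% to 6.67%). All windows held it at 12.7%, and windows under kept regions at 3.23%. In the 139 windows under lost regions with a Cdx2 peak the share was 18.0% (25 windows, interval 12.5% to 25.2%). GC content moves with these shares. Among windows of at least 50% GC, 5.35% under lost regions and 6.86% of all windows held the CDX motif. Below 50% GC the shares were 12.6% of 223 windows and 21.9%. When a lost region had to cover all 300 bases, 3.08% of windows held it.

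Other motifs of intestinal and general factors were searched by the same exact match on both strands, with overlaps between motifs allowed. The GATA motif (AGATAA) was in 5.62% of windows under lost regions, 2.17% under kept ones and 11.2% of all. For AP-1 (TGANTCA) the shares were 5.68%, 3.13% and 7.85%, and for ETS (AGGAAGT) 9.30%, 6.93% and 9.38%. The KLF motif (GGGNGTGG), which is GC-rich, ran the other way, with 23.6%, 27.6% and 17.7%. HNF4A (CAAAGTNCA) stood at 1.10%, 0.569% and 1.42%. TCF (CTTTGAT), RUNX (TGTGGTT), FOXA (TGTTTAC), HNF1 (GTTAATNAT) and the CArG box were each more frequent under lost than under kept regions, and each was less frequent there than over all windows. GC content moves with these shares too, and within GC classes the order against all windows was not always kept. Below 50% GC, the share under lost regions was the higher one for FOXA (7.17% against 5.78%), HNF1 (2.69% against 1.62%), HNF4A (4.48% against 2.30%), AP-1 (13.0% against 11.6%) and ETS (17.5% against 10.8%). These shares rested on 16, 6, 10, 29 and 39 of 223 windows. Among these motifs the interval excluded the share of all windows only for HNF4A (2.45% to 8.06%) and ETS (13.1% to 23.0%). KLF stayed higher under lost regions below 50% GC, at 12.1% against 7.92%, and its interval (8.46% to 17.0%) excluded the share of all windows. At 50% GC or more the share under lost regions was the higher one for TCF (2.74% against 2.54%), ETS (8.72% against 8.49%) and the CArG box (1.40% against 1.35%). There the intervals of all 3 included the share of all windows. At that GC level KLF (24.4% against 24.0%) and CTCF (2.36% against 2.00%) also stayed higher, with intervals that included the share of all windows. CTCF (AGGGGGCGC) was in 2.20% of windows under lost regions, 2.77% under kept ones and 1.25% of all. A match is not a binding site, and its absence concerns these 300 bases alone.

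**Figure D3:**
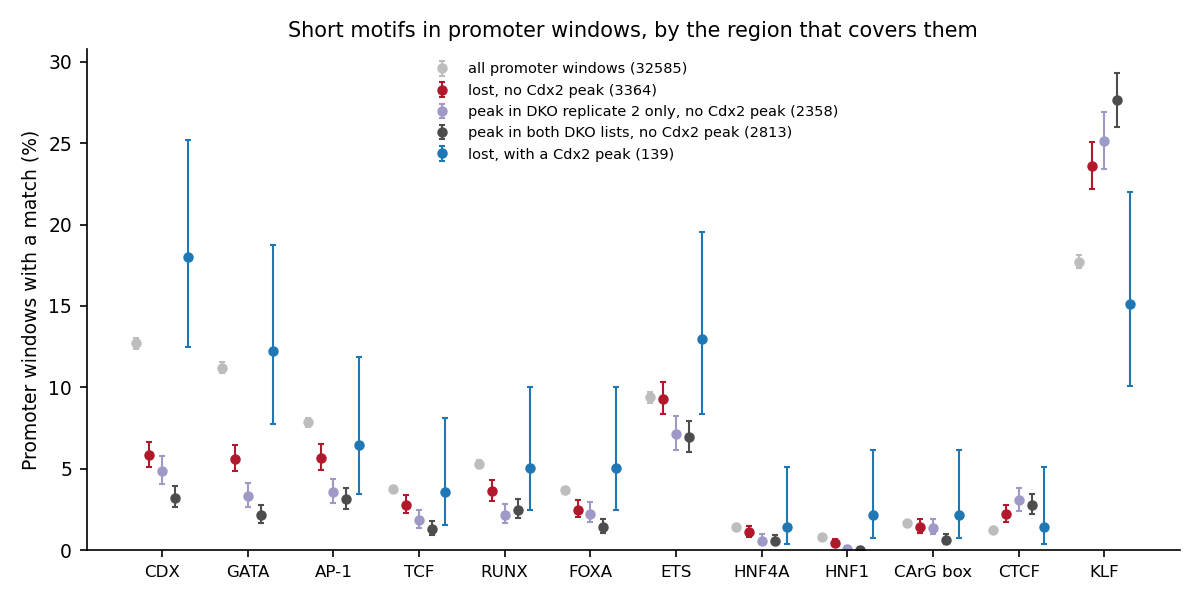
Percent of 300-base promoter windows with an exact match to each of 12 motifs, with 95% Wilson intervals, for all windows and for windows of which a region of each kind covers at least 150 bases. Windows under lost regions without a Cdx2 peak hold the CDX motif at 5.83%, between kept regions at 3.23% and lost regions with a Cdx2 peak at 18.0%. All windows hold it at 12.7%. In the order lost without a Cdx2 peak, kept, and lost with a Cdx2 peak, the median GC content is 60.7%, 68% and 54.3%.

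Each lost region was then linked to the gene with the nearest start within 50 kb, and RNA changes were read from the authors' deposited table of DKO against Wt. Of the 11615, 7626 regions were linked to 5934 genes of that table, 3021 to a gene without a row in it, and 968 had no start within 50 kb. The table gives 1 mean level over all libraries. Counts per library were used per transcript, and nothing used here pairs those transcripts with genes, so a gene's values per library are not shown. The table's fold changes appear to be shrunken.

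The share of linked genes that were lower in DKO was near that of all genes. By the authors' deposited table, 18.6% of the linked genes were lower (1105 of 5934, authors' adjusted p under 0.05), against 18.3% of all 17511 genes. A further 22.4% were higher (1330), against 18.5% of all genes. The 723 linked genes that also had a kept region were higher in 40.4% and lower in 11.2% of cases by the authors' deposited table. Of the other 5211, 19.9% were higher and 19.7% lower by the authors' deposited table. Linked genes were also more abundant, with a median mean level of 590.6 normalized counts against 242.5 for the authors' deposited table as a whole. At a mean of 50 counts or more, 19.04% of linked genes in the authors' deposited table were lower and 25.1% higher, against 19.5% and 24.7% overall. At least 2-fold changes were made by 11.3% downwards and 13.0% upwards in the authors' deposited table, against 13.2% and 11% of all genes. At the stricter adjusted p under 0.01, 13.8% of linked genes were lower by the authors' deposited table, against 13% of all. The median log2 fold change there was 0.02 for linked genes and -0.02 for all genes.

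The counts were then split by distance. Genes with a lost region within 1 kb of the start were lower in 18.9% and higher in 18.9% of 4002 cases in the authors' deposited table. For genes linked over 1 to 50 kb, 17.6% were lower and 29.5% higher (of 2635), and with a mean of at least 50 counts 17.5% and 33.8%. At that level, genes with a lost region within 1 kb were lower in 19.5% and higher in 20.7% of cases. All genes at that level were lower in 19.5% and higher in 24.7% of cases by the authors' deposited table. By contrast, genes with a kept region within 1 kb were lower in 11.2% and higher in 35.3% of 2563 cases in the authors' deposited table. Genes with a lost, Cdx2-bound region within 1 kb were lower in 28.1% and higher in 11.6% of 146 cases in the same deposited table of the authors. These are counts without a test of their difference, and a gene can be linked to regions of more than 1 kind.

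**Figure D4:**
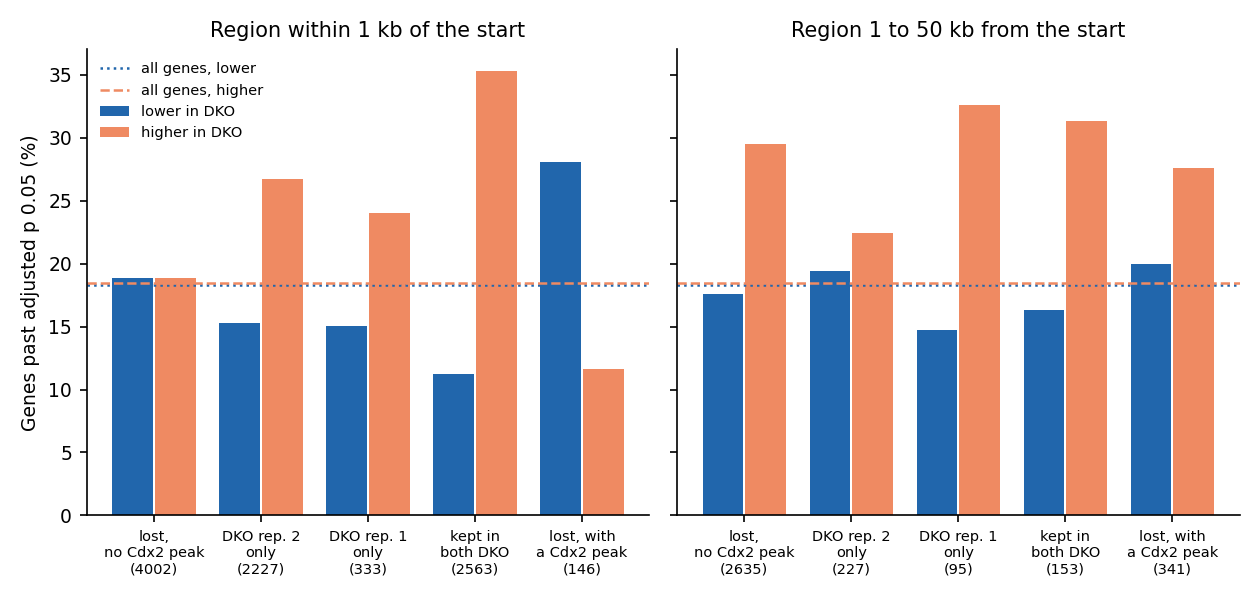
Percent of linked genes that were lower or higher in DKO at an adjusted p under 0.05 in the authors' deposited table, by kind of strong Wt region and by distance to the start, with the number of genes in brackets. Dotted and dashed lines mark 18.3% lower and 18.5% higher over all genes; genes with a lost, unbound region within 1 kb sit at 18.9% for both.

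Genes were also counted by how many lost regions they had. With 1 linked region, 19.2% of 4635 genes were lower and 19.8% higher by the authors' deposited table. With 2 regions the shares were 17.7% and 29.9% of 1011 genes, and with 3 they were 13.8% and 37.9% of 203. Of the 85 genes with 4 or more, 8 were lower (9.41%) and 33 higher (38.8%) by the authors' deposited table. Mean levels moved with this too, from a median of 510.5 normalized counts with 1 region to 1599 with 4 or more. By the authors' deposited table, genes at a mean of at least 50 counts were higher in 22.3% of cases with 1 region. At that level the share was 32.6% with 2 regions, 39.7% with 3 and 41.8% with 4 or more. In the same order, 19.9%, 17.2%, 13.9% and 8.86% were lower. Over all genes, by the authors' deposited table, 24.7% were higher and 19.5% lower at that level, and 18.5% and 18.3% at any level. The part of abundance in these counts was not tested.

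Sgms1, which encodes a sphingomyelin synthase, had the most lost regions, 7, all over 1 kb from its start. Its RNA was higher in DKO in the authors' deposited table, at 1.49 ± 0.342 (SE) on the log2 scale (adjusted p = 3.22e-05). Lmo7, an actin-associated LIM domain protein, had 6 and was also higher in the authors' deposited table (1.00, SE 0.299, adjusted p = 0.00203). Clmn and Tmcc3 likewise had 6 regions each, and their log2 fold changes of -0.29 and -0.12 in the authors' deposited table did not pass the test (adjusted p = 0.251 and 0.715). Sgms1 and Tmcc3 also had 1 kept region each. Lost regions with a Cdx2 peak numbered 1 at Sgms1, 2 at Lmo7 and 1 at Clmn. Large rises among genes with 4 regions were those of Erc2 (5.84), Tc2n (5.34), Gclc (3.71), Dtx4 (3.13) and Lpin1 (2.50) in the authors' deposited table. Of these, Tc2n and Dtx4 also had 1 kept region each, and Erc2, Gclc and Lpin1 had none. Gclc encodes the catalytic subunit of glutamate-cysteine ligase, an enzyme of glutathione synthesis, and Lpin1 a phosphatidate phosphatase. The other genes of this group that were higher were Ablim1, Arhgef3, Gpr39, C77080, Galnt4, Atp8b1, Rbm47, Scarb2, Ndfip2, Dab2ip, Kcnk1, Kif13a, Jak2, Atl2, Nck2, Shb, Usp6nl, Ica1, Fgd6, Rasa2, Manba, Ppfibp2, Mob3b, Tnik, Bfsp1 and Fosb.

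The 8 genes with 4 or more lost regions and lower RNA included Edn2, 9030404E10Rik, Fam3b, Sipa1l1, Vil1, Sytl2 and Mcf2l. Edn2, which encodes the peptide endothelin 2, fell by 4.00 on the log2 scale in the authors' deposited table (SE 0.470, adjusted p = 7.61e-17). Vil1 encodes villin, the actin bundler of the brush border, and all 4 of its regions were distal. The strongest of them, at chr1:74452611-74452862, had folds of 8.68 and 9.06 in the Wt lists and lay 43227 bases from the start. Vil1 RNA fell by 0.87 in the authors' deposited table (SE 0.227, adjusted p = 0.000488).

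Among linked genes at 100 normalized counts or more, the largest falls included transporters of the absorptive colonocyte. Slc37a2, a sugar phosphate exchanger, had a lost region at chr9:37255247-37255553, 185 bases from its start, with folds of 8.24 and 9.18. Its RNA fell by 6.72 on the log2 scale in the authors' deposited table (SE 0.435, adjusted p = 1.96e-52). Slc13a1, a sodium-sulfate cotransporter, had 2 distal lost regions besides a lost region with a Cdx2 peak. In the authors' deposited table it fell by 7.79 (SE 0.775, adjusted p = 1.23e-21). Slc13a2, a sodium-dicarboxylate cotransporter, fell by 5.25 in the authors' deposited table and Tmigd1, an adhesion protein of the immunoglobulin family, by 5.72. Each had 1 lost region, 14979 and 14458 bases from the start. Fer1l6, of the ferlin family, fell by 5.96 in the authors' deposited table and had a lost region 7483 bases from the start.

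The remaining 3 of the 8 largest falls were Myh11 (-7.80), Pdlim3 (-6.58) and Col1a1 (-5.27) in the authors' deposited table. These are genes of smooth muscle, the sarcomere and fibroblasts. In the list of stroma, muscle and endothelium markers, 27 of 28 genes were lower in the authors' deposited table, with a median log2 fold change of -5.13. Of those 28, 6 had a linked lost region and 7 had any strong Wt region. Levels in each group are not given, because transcripts could not be paired with genes here, and the part of other cells in the lost regions was not tested. Without the genes of this list, 1099 of 5928 linked genes were lower (18.5%).

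The largest rises were at Plat, Hrct1, Depp1, Mmp7, Gprc5b, Cers3, Eya2 and Klf15. Plat, which encodes tissue plasminogen activator, had a lost region over its start at chr8:22757463-22757764, with folds of 5.01 and 5.78. Its RNA was higher by 8.95 on the log2 scale in the authors' deposited table (SE 0.282, adjusted p = 3.13e-217). Gprc5b, an orphan receptor, had a lost region over its start (chr7:118995041-118995346, folds 5.21 and 6.51) and was higher by 6.42 in the authors' deposited table (SE 0.371, adjusted p = 3.12e-65). At Hrct1 a lost region also covered the start, and RNA was higher by 7.08 in the authors' deposited table. Klf15, a zinc finger transcription factor, had 2 lost regions within 1 kb and was higher by 5.41 in the authors' deposited table. Depp1 was higher by 6.80 in the authors' deposited table with a lost region 10 bases from its start. That region barely passed the limit of 5 in Wt replicate 1, at a -log10 q of 5.02. Mmp7, the matrix metalloproteinase matrilysin, was higher by 6.49 in the authors' deposited table, with a lost region 2070 bases from its start. At Eya2 and Cers3 the lost region was distal, 31158 and 46514 bases from the start.

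The study's own genes each held few lost regions. At Trim31, an E3 ubiquitin ligase that restrains the NLRP3 inflammasome, the lost region at chr17:36897867-36898134 covered the start. Its folds were 5.63 and 4.55 in Wt replicates 1 and 2. The -log10 q values were 7.29 and 5.02, so in Wt replicate 2 it barely passed the limit of 5. A separate lost region with a Cdx2 peak was also linked to Trim31. Trim31 RNA fell by 1.48 on the log2 scale in the authors' deposited table (SE 0.450, adjusted p = 0.00135). Nlrp3, the inflammasome sensor, had no linked lost region, and its RNA in the authors' deposited table was low, at a mean of 8.77 counts, and did not pass the test (log2 fold change 1.88, SE 1.78, adjusted p = 0.0578).

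Cdx2 had 1 lost region over its start, at chr5:147306826-147307504, with folds of 4.23 and 5.42. No Cdx2 peak overlapped it. Cdx2 RNA did not pass the test in the authors' deposited table, at -0.27 ± 0.208 (SE) on the log2 scale (adjusted p = 0.301). Which exons the floxed allele loses is not given in the sources used here, so this gene-level value does not check the deletion. Cdx1, null in both groups by its label, had 1 lost region 588 bases from its start and fell by 1.06 in the authors' deposited table (SE 0.232, adjusted p = 2.08e-05). Its mean level there was 2595 normalized counts, so reads were still assigned to the gene.

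The gene lists below are read against the 18.3% lower and 18.5% higher of all genes, and against their own members without a lost region. Of all 17511 genes, 5934 had a linked lost region. Intestinal identity genes, transcription factors and epithelial surface proteins, come first. Of 42 listed, 27 had at least 1 lost region, and of these 10 were lower and 5 higher by the authors' deposited table (median log2 fold change -0.43). Of the 15 without one, 11 were lower and 3 higher by the authors' deposited table. Elf3, an epithelial ETS factor, had 3 lost regions and fell by 0.96 in the authors' deposited table (SE 0.175, adjusted p = 3.55e-07). Nr1h4, the bile acid receptor FXR, had 3 distal ones and fell by 0.60 in the authors' deposited table (SE 0.241, adjusted p = 0.0283). Cdh17, an intestinal cadherin, had 4 distal ones, and its log2 fold change of -0.48 in the authors' deposited table did not pass (SE 0.291, adjusted p = 0.175).

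The absorptive colonocyte takes up water and salt at the colon surface. Lost regions were linked to 24 of its 38 listed genes, of which 16 were lower and 4 higher by the authors' deposited table (median -1.06). Of the 14 without one, 10 were lower and 1 higher by the authors' deposited table. Vil1 and Slc37a2 are given above. Eps8l2 and Scnn1a had 3 lost regions each, and their log2 fold changes of -0.21 and 0.34 in the authors' deposited table did not pass (adjusted p = 0.404 and 0.129). Plac8 had 2 and was higher by 1.66 in the authors' deposited table (SE 0.234, adjusted p = 7.00e-12).

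For goblet cells, which make the mucus layer, 9 of 21 measured genes had a lost region. Of these 6 were lower and 1 higher by the authors' deposited table, and of the other 12 genes 9 were lower and 0 higher. Fcgbp, a mucus protein of very high level, had a lost region over its start at chr7:28070820-28071308, with folds of 6.63 and 6.07. Fcgbp RNA fell by 4.39 on the log2 scale in the authors' deposited table (SE 0.246, adjusted p = 2.67e-69). Sytl2, a synaptotagmin-like protein of vesicle transport, had 5 lost regions and fell by 0.81 in the authors' deposited table (SE 0.258, adjusted p = 0.00481). Creb3l1 had 2 and fell by 0.63 in the authors' deposited table (SE 0.240, adjusted p = 0.0206). Galnt12, with 2, had a log2 fold change of 0.03 in the authors' deposited table (adjusted p = 0.922).

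Enteroendocrine and tuft cell genes were linked in 2 of 28 cases (Sh2d6 and Scg2), and 15 of the 28 were lower in the authors' deposited table. None of the 13 measured gastric genes had a linked lost region, and 9 of them were higher in the authors' deposited table. Only 3 listed enteroendocrine and tuft cell genes and 2 gastric genes had any strong Wt region, so few could hold a lost one. Among drug and xenobiotic metabolism genes, 17 of 33 had a lost region, 9 lower and 5 higher by the authors' deposited table. Of the 16 without one, 9 were lower and 4 higher by the authors' deposited table. Ces2a, a carboxylesterase, had 2 and fell by 3.62 in the authors' deposited table (SE 0.261, adjusted p = 2.22e-42). Cyp4f14, a cytochrome P450, had 3 and by the authors' deposited table fell by 2.30 (SE 0.404, adjusted p = 2.82e-08). Gsta4, a glutathione transferase, had 3 and was higher by 3.33 in the authors' deposited table (SE 0.263, adjusted p = 2.20e-35). Adh1 had 2, both within 1 kb, and a log2 fold change of -0.31 in the authors' deposited table (adjusted p = 0.506).

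NF-kB and AP-1 genes answer to injury and microbes. Of 37 listed inflammation and NF-kB genes, 17 had a lost region, and of those 10 were higher and 2 lower by the authors' deposited table (median 0.95). Of the 20 without one, 10 were higher and 2 lower by the authors' deposited table. Fosb, an AP-1 subunit, had 4 lost regions and was higher by 1.37 in the authors' deposited table (SE 0.447, adjusted p = 0.00316). Tnfaip3, which encodes the NF-kB inhibitor A20, had 3 and was higher by 0.94 in the authors' deposited table (SE 0.296, adjusted p = 0.00371). Duox2 and Fos had 2 each, and their log2 fold changes of 0.48 and 0.22 in the authors' deposited table did not pass (adjusted p = 0.0534 and 0.420).

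Of 24 measured stem cell and Wnt target genes, 12 had a lost region, 1 lower and 4 higher by the authors' deposited table. Of the 12 without one, 3 were lower and 3 higher by the authors' deposited table. Lrig1 had 4 and Ephb3 had 3, with log2 fold changes of -0.14 and -0.10 in the authors' deposited table that did not pass (adjusted p = 0.637 and 0.798). Cell junction genes were linked in 14 of 26 cases, 3 lower and 5 higher by the authors' deposited table. Of the 12 without one, 2 were lower and 3 higher by the authors' deposited table. Cldn3, a claudin, had 3 distal ones and by the authors' deposited table fell by 0.64 (SE 0.213, adjusted p = 0.00768). Marveld3 had 3 and fell by 0.94 in the authors' deposited table (SE 0.236, adjusted p = 0.000246).

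**Figure D5:**
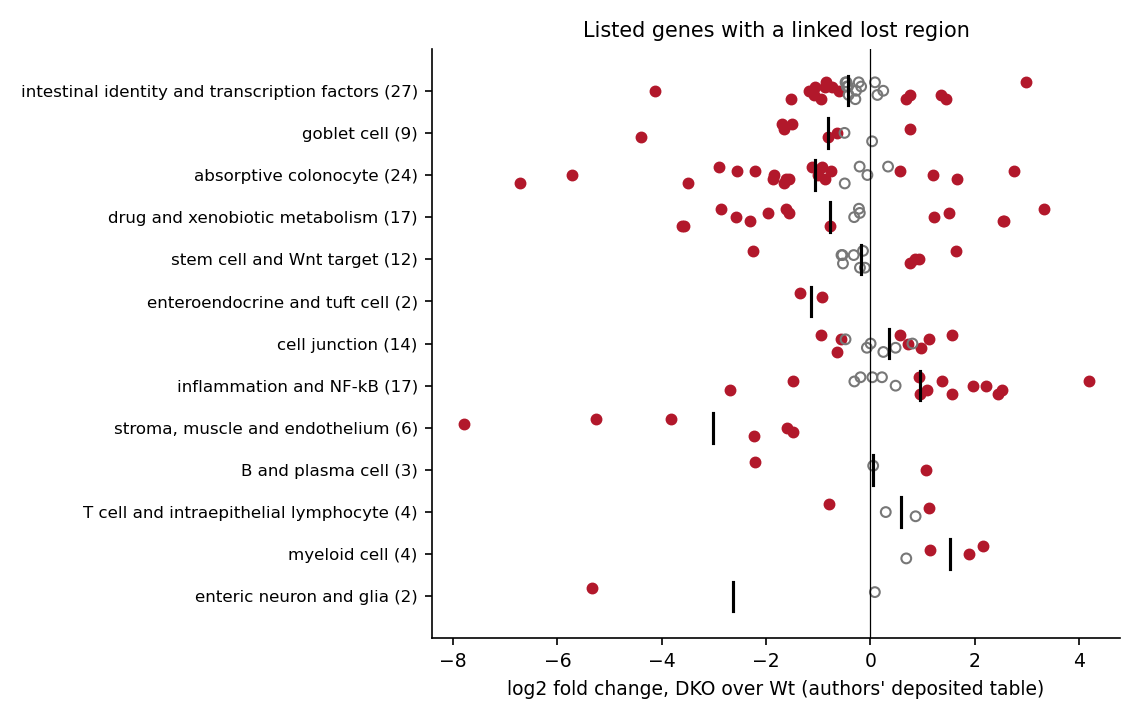
Log2 fold change of DKO over Wt, from the authors' deposited table, of each listed gene with at least 1 linked lost region, by list with the number of genes in brackets. Filled points passed an adjusted p of 0.05, open points did not, and the bar is the median; absorptive colonocyte genes have a median of -1.06 and inflammation genes of 0.95.

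Markers of other cells were examined as well. A lost region was linked to 3 of 14 measured B and plasma cell genes, 4 of 21 T cell genes, 4 of 18 myeloid genes and 2 of 11 genes of enteric neurons and glia. In the same order, only 3, 4, 4 and 3 listed genes had any strong Wt region. By the authors' deposited table, 7 of the 14 B and plasma cell genes were lower and 1 higher, and 8 of the 11 neuron and glia genes lower and 1 higher (median -5.38). Of the T cell genes 1 was lower and 4 higher, and of the myeloid genes 3 were lower and 5 higher, by the authors' deposited table. The part of such cells in the lost regions was not tested. Strong Wt regions at such genes can come from any cell in the preparation. Cd14, with a lost region 526 bases from its start, was higher by 2.16 in the authors' deposited table (SE 0.202, adjusted p = 1.32e-25). Xbp1, a regulator of secretory capacity also used by epithelial cells, was higher by 1.07 in the authors' deposited table (SE 0.179, adjusted p = 1.82e-08). By the authors' deposited table, Derl3 fell by 2.22 at a mean of 26.5 counts. Epithelial markers did not move alike in the authors' deposited table: Epcam (-0.22), Krt8 (-0.20) and Cdh17 (-0.48) did not pass the test. Muc2 (-4.95), Car1 (-2.71), Slc26a3 (-1.86), Krt20 (-0.92) and Vil1 (-0.87) were lower in the authors' deposited table.

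Promoters of ribosomal protein genes, a group picked after values had been seen, are given as a case of abundant genes. Of 84 measured genes, 58 had a strong Wt region within 1 kb, 62 regions in all. No Cdx2 peak overlapped 41 that were lost, while 1 lost region had one, 6 were kept in both DKO lists, 11 were in replicate 2 only and 3 in replicate 1 only. Of all unbound strong regions within 1 kb of a start, 46.2% were lost. The 41 lay at 38 genes, of which 1 was lower and 2 higher by the authors' deposited table, where 18.3% and 18.5% of all genes were. Log2 fold changes of these 38 ran from -0.56 to 0.70, with a median of 0.02, at a median level of 10849 counts in the authors' deposited table. Values of the other measured ribosomal protein genes are not given here, so these do not set the 38 apart from their family.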

How the data were processed

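Libraries were grouped by their titles and strain labels. Per the submitters' processing notes, the tools were fastp, BWA, Bowtie2, MACS2, DESeq2 and Salmon 1.3.0, with GRCm38 and mm10 as builds. Which step each tool served, its settings, any read shift for the transposase and the control of the ChIP peaks were not given in the sources used here. Peak files held, for each peak, a fold enrichment ratio, a -log10 q value and a summit position that the authors' caller wrote, 1 list per library per the file headers. The authors' estimated counts per transcript, per the file headers from Salmon, gave the RNA depth of 16403301 to 25494309 reads per library. The gene table held the authors' mean normalized count (a signal scaled between libraries), log2 fold change with its SE, and p-values and adjusted p-values. Fold over SE returned the deposited p within 0.01 in log10 for 1751 of 17511 genes, so the folds appear to be shrunken. Its direction was checked on the most abundant features (50000 reads or more) with a log2 change of 4 or more in size: 4 transcripts were lower and 0 higher in the counts, and 3 genes lower and 0 higher in the table.

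Peaks were merged at an overlap of 1 bp in Python 3.11.15 (numpy 2.4.6, pandas 2.3.3, scipy 1.17.1), and the merging and linking were tested on simulated data. Starts were those of RefSeq promoter windows (GRCm38.p6) and, for 7531 protein-coding or lncRNA genes without one, both span ends; that definition, and matching genes by symbol before Entrez ID, were settled after values under other versions had been seen. Of the 17511 genes, 16341 (93.3%) matched RefSeq. Motifs were searched in promoter windows covered over at least 150 bases, in place of the planned bases around each summit, since no genome was used here. Intervals are Wilson 95% intervals and cover counting error only. The members and gene lists were chosen with earlier results of these data known. Genes named were the 8 lowest and 8 highest linked genes past an adjusted p of 0.05 with a mean of at least 100 counts, those with 4 or more regions (of those that did not pass the test, only the ones in the text), up to 4 per list, Trim31, Nlrp3, Cdx1 and Cdx2; regions named were the 10 strongest. One gene list and some single genes are not reported here. Alternatives tried were other q limits, merging, libraries left out, linking rules and abundance limits.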

Additional observations from a re-analysis of the deposited data

How the results depend on the processing

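Of 65 recomputed values, 44 stayed within their margin (1.5 times for counts, the 95% interval for shares, the median SE for the median fold change). The lost share moved in 8 of 9 settings, and the share near a start in 8 of 10. All 13 values of the median fold change stayed, but the SE of a single gene is a wide margin for a median over all linked genes. That outcome therefore says little. At a -log10 q of at least 3 in Wt, 19317 regions were chosen, 72.1% of strong unbound regions were lost and 34.3% of the chosen lay within 1 kb of a start. At 10 or more these were 3259, 40.7% and 59.6%. Out of these fewer regions, 372 of 2306 linked genes were lower (16.1%), against 18.3% of all genes. Merging across gaps of up to 100 bp gave a lost share of 63.2%, and requiring no DKO peak within 500 bases, chosen after seeing the data, gave 59.996%. Counting starts within 2500 bases gave 46.5% near a start, and using promoter windows alone, chosen after seeing the data, gave 34.3%. The CDX motif share was 3.08% for windows covered in all 300 bases, also chosen after seeing the data. Leaving out each ATAC library in turn gave 12170 to 18776 regions (the highest without Wt replicate 1). Lost shares were then 67.0% to 80.2% (the highest without DKO replicate 2), and 34.97% to 50.4% of the regions lay near a start. Linked genes called lower numbered 1146 to 1436, or 18.1% to 18.9% of linked genes, against 18.3% of all genes. Median log2 fold changes were 0.01 to 0.04, and CDX motif shares 5.37% to 5.89%. The median log2 fold change of linked genes ran from -0.01 to 0.06 over all alternatives, on both sides of 0. The planned motif windows around summits were not run, for want of a genome here. ATAC depth is unknown, so a missing DKO peak limits every count. No paired analysis was possible because the deposited gene table has no values per library and the peak lists give none for a region without a peak.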
